A study of Homo sapiens with 4 samples.

Results

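The 10 inflammatory cytokine genes IL1A, IL1B, IL6, CXCL8, CXCL1, CXCL2, CXCL3, CCL2, LIF and CSF2 were examined in RNA-seq of cells depleted of topoisomerase 2 beta (TOP2B). They were taken by symbol from a list of interleukin and chemokine genes, and all 10 had a row among the 60725 genes of the count table. The cells were RPE1 SunTag cells, which descend from human retinal pigment epithelium and were made immortal with hTERT, the catalytic subunit of telomerase. The 2 control libraries came from cells given 10 nM of a control siRNA (Silencer Select Negative Control No. 2). The 2 TOP2B knockdown (TOP2B KD) libraries came from cells given 10 nM of a Dharmacon SMARTpool of siRNAs against TOP2B. Both groups were transfected again after 48 h and collected 72 h later, on day 5. The 2 groups differed in the make of the siRNA as well as in its target, and these cannot be told apart here. The data describe a single cell line, and the study calls the 2 samples of a group independent biological replicates.

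Library totals lay between 20310259 and 23887013 counts, so that a level of 1 CPM, the count scaled to the library total, rested on 20.3 to 23.9 reads. TOP2B itself had 154.9 and 143.5 CPM in the control and 15.3 and 13.3 CPM after knockdown, which left 9.58% of the control level. Of 13 leukocyte markers, CD3E was at 0 in every library, only CSF1R had enough counts to be tested, and their summed level was 3.55 and 4.39 CPM in the control against 3.92 and 4.17 CPM after knockdown. Of 14 retinal pigment epithelium and epithelial markers, 8 were tested. Of these 0 were called by edgeR or DESeq2, where 10.8% and 11.8% of all genes were called. With 8 genes, 0 calls is not far from these shares. At an unadjusted p below 0.05, 1 was higher and 1 lower. Of the pigment epithelium markers, RPE65, TYR and TTR were at 0 in every library, and RLBP1 and LRAT had at most 5 counts. BEST1 and PMEL had 7 to 31 counts. MITF had 921 and 870 counts in the control and 903 and 904 after knockdown. OTX2 had 285 and 256 in the control and 284 and 252 after knockdown. In bulk RNA, fewer cells that express a gene and less RNA of it per cell cannot be told apart.

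Interleukin 1 is made as IL-1α (IL1A) and IL-1β (IL1B), which bind the same receptor and signal through MYD88 and the IKK complex to the transcription factor NF-κB. NF-κB in turn drives many cytokine genes, among them IL6, the CXC chemokines CXCL8, CXCL1, CXCL2 and CXCL3 that attract neutrophils, and CCL2 that attracts monocytes. LIF belongs to the IL-6 family and signals through LIFR and IL6ST to STAT3, and CSF2 encodes the growth factor GM-CSF. Transcripts of these genes are often short-lived, because AU-rich sequences in the 3′ UTR recruit decay factors, and the set is known from the secretory phenotype of senescent cells.

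The 10 genes did not move as a block after TOP2B depletion. IL1B rose 5.15-fold and CCL2 fell 3.45-fold, and these were the 2 genes that passed the test. LIF, by far the most abundant of the 10, together with CXCL3 and CSF2 lay above the control in both knockdown libraries without passing it, IL6 lay below, and CXCL1 was not detected at all. A gene entered edgeR's quasi-likelihood test if 2 or more libraries held 10 or more of its counts, and it was called at an adjusted p below 0.05. This left 6 of the 10 genes, of which 1 was called higher and 1 lower, or 2 of 6, against 10.8% of all 15356 genes tested (6.66% higher and 4.18% lower).

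**Figure D1:**
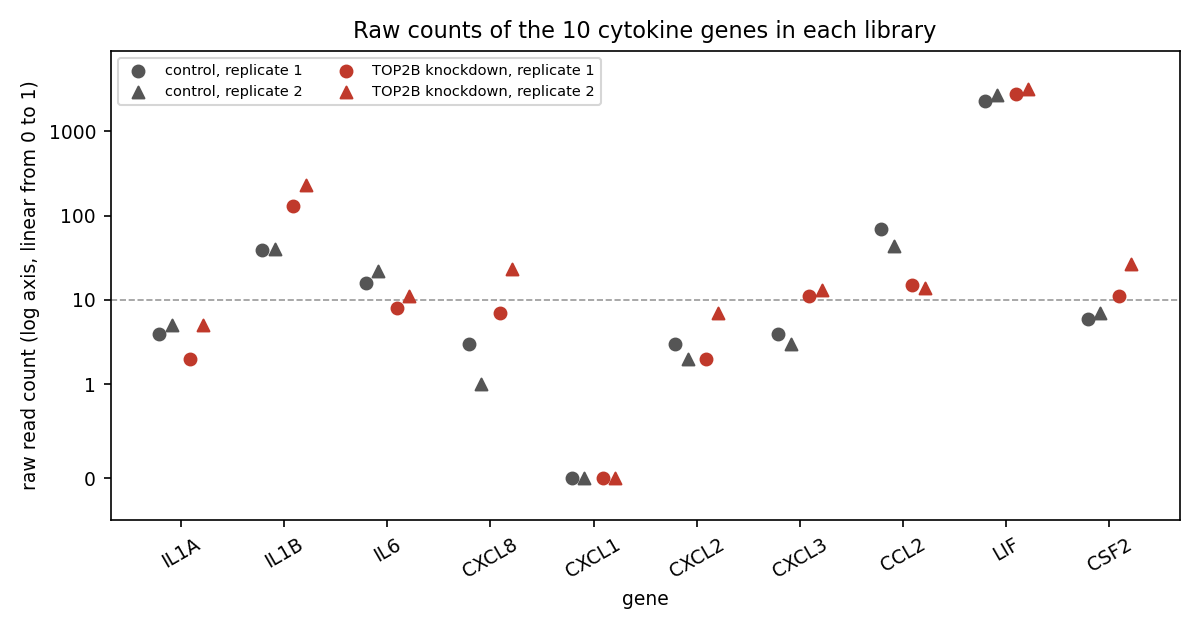
Raw counts of the 10 cytokine genes in each of the 4 libraries, on an axis that is linear near 0 and logarithmic above. Each point is a library, coloured by group and shaped by replicate, and the dashed line marks 10 counts. LIF stands at 2276 to 3207 counts, IL1B and CCL2 separate in opposite directions, and CXCL1 is at 0 in all libraries.

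Levels between the genes are compared as RPKM, which is the CPM divided by the kilobases of annotated exon. LIF led with a mean level of 27.6 ± 4.37 RPKM in the control (SD, n = 2) and 37.5 ± 5.13 RPKM after knockdown. It supplied 94.0% and 95.6% of the reads of all 10 genes in the control libraries and 93.7% and 90.7% in the knockdown libraries. In the control, CCL2 followed at 1.25 RPKM, IL1B at 0.562 RPKM, CSF2 at 0.354 RPKM and IL6 at 0.189 RPKM. The replicate ranges of these neighbours did not overlap. The place of CSF2 above IL6 rests on the length, which takes in all annotated exons (788 bases in CSF2, 4321 in IL6). In CPM, IL6 lay above CSF2 in the control, at 0.817 against 0.279. The neighbours IL1A and CXCL2, and CXCL2 and CXCL3, overlapped at levels of 0.0673 to 0.0958 RPKM, with CXCL8 below them at 0.0327 RPKM. After knockdown the second place was held by IL1B at a level of 2.91 RPKM and the third by CSF2 at 1.18 RPKM. CCL2 had moved to the fourth place at 0.362 RPKM, and from CCL2 down to IL1A each gene overlapped its neighbour in the order. The number of these genes with at least 10 counts was 4 in each control library, 5 in knockdown replicate 1 and 7 in knockdown replicate 2, with 9 detected in every library.

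IL1B (ENSG00000125538, chromosome 2, 112829751 to 112836816, minus strand, GRCh38) encodes the secreted form of interleukin 1 that is cut from a precursor by caspase-1. It had 39 and 40 counts in the control libraries and 131 and 228 counts in the knockdown libraries. The groups lay far apart, but knockdown replicate 2 was 1.83-fold above replicate 1 on the CPM scale, while the control replicates differed 1.08-fold. The level went from 1.69 ± 0.089 CPM to 8.74 ± 3.62 CPM (SD, n = 2), a log2 fold change of 2.36 (SE 0.31, 95% interval 1.68 to 3.05, adjusted p = 0.00194 by edgeR's quasi-likelihood test). As a fold this is 5.15, with an interval of 3.20 to 8.29. Only 14 of all tested genes had a larger rise. Leaving out each library in turn gave log2 fold changes of 1.88 to 2.74.

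The sequences around IL1B are shown because it is the gene of the set with the largest tested change. The RefSeq promoter window (GRCh38.p14, chr2:112836730-112837029, minus strand), from 250 bases before the start to 50 after it, is printed with a match to the C/EBP motif TTGCNNAA in capitals. C/EBP factors are known regulators of inflammatory genes. The second sequence is a 3′ UTR site (chr2:112830012-112830041, minus strand) with the word GCAACC in capitals, which was looked up because earlier results of these data had linked it to higher expression.
IL1B promoter: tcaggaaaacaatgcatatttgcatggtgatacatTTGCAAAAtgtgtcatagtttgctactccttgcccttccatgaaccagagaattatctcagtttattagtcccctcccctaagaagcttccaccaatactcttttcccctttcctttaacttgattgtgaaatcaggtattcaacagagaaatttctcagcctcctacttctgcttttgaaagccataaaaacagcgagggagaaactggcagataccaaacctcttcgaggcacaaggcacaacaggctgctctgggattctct
IL1B 3′ UTR site: acattctgatgaGCAACCgcttccctattt

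IL1A (ENSG00000115008, chromosome 2, 112773925 to 112784493, minus strand) lies 45.3 kb from IL1B and encodes the interleukin 1 that acts largely at the cell surface and in the nucleus. It had 4 and 5 counts in the control libraries and 2 and 5 after knockdown, and the groups overlapped. The ratio of the summed counts, knockdown over control and scaled to the adjusted library sizes, was 0.879, with an exact 95% interval of 0.278 to 2.65. Such intervals cover counting error only. IL1A was too low for the test, and a change of the size seen for IL1B lies outside this interval.

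Around IL1B on chromosome 2 lies a cluster of interleukin 1 relatives. IL1RN, the natural antagonist of the IL-1 receptor, 262 kb away, had 102 and 70 counts in the control and 134 and 131 after knockdown, and rose by 0.80 on the log2 scale (SE 0.22, adjusted p = 0.0435 by edgeR). This call ended with DESeq2's Wald test (adjusted p = 0.0835) and in 3 of the 4 fits that left out a library. IL37, an anti-inflammatory relative 74.3 kb away, had 0 and 3 control counts and 5 and 10 after knockdown and was too low to test. IL36G had 1 or 2 counts in each library, IL36B had 1 count in a single library, and IL36A and IL36RN had 0.

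CXCL8 (ENSG00000169429, chromosome 4, 73740519 to 73743716, plus strand) encodes interleukin 8, the main neutrophil chemokine of human cells. It had 3 and 1 counts in the control libraries and 7 and 23 after knockdown. Both knockdown libraries lay above both control libraries, and 23 of the 30 knockdown reads came from replicate 2. The ratio of the summed counts was 8.48, with an exact counting interval of 2.99 to 33.1. CXCL8 did not pass the filter on low counts, because only 1 library reached 10. Without that filter edgeR gave a log2 fold change of 3.01 (SE 0.69, adjusted p = 0.000437 over 29440 genes). Adjusted p-values of that fit are not on the scale of the main fit and do not compare with that of IL1B there. DESeq2's Wald test gave 3.10 with an unadjusted p of 0.0103 and no adjusted p.

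CXCL3 (ENSG00000163734, chromosome 4, 74036589 to 74038807, minus strand) had 4 and 3 counts in the control libraries and 11 and 13 after knockdown. The replicates of each group lay close together and the groups did not overlap. The log2 fold change was 1.92 (SE 0.56, 95% interval 0.66 to 3.17), with an adjusted p of 0.0577 by edgeR's quasi-likelihood test, so CXCL3 was not called. It had passed the filter only through the knockdown libraries, where it is higher. The ratio of summed counts was 3.88 (1.62 to 10.7). Without the filter edgeR gave an adjusted p of 0.0449, which is not on the scale of the main fit.

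CXCL2 (ENSG00000081041, chromosome 4, 74097040 to 74099196, minus strand) had 3 and 2 counts in the control libraries and 2 and 7 after knockdown, and the groups overlapped. Its ratio of summed counts was 2.03, with an interval of 0.612 to 7.73. CXCL1 (ENSG00000163739, chromosome 4, 73869393 to 73871308, plus strand) had 0 counts in all 4 libraries, which allows a level of up to 0.125 to 0.149 CPM per library (3 counts). The other CXC chemokine genes of the cluster, CXCL6, PF4V1, PF4, PPBP and CXCL5, also had 0 counts in every library. In the same stretch of chromosome 4, reads were therefore found on CXCL8, CXCL3 and CXCL2 alone of the 9 chemokine genes examined.

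CXCL1, CXCL2 and CXCL3 arose by duplication and have closely related transcripts. Of the stretches of 65 bases, the read length, in the canonical transcripts, 1.44% in CXCL1, 4.66% in CXCL2 and 3.26% in CXCL3 were shared with another of these 3 genes, so that a small part of their reads could not be placed. The promoters are shown because they differ little in their letters, while the counts of the 3 genes differ. Each line gives a stretch of 86 bases upstream of the RefSeq start (GRCh38.p14) that ends short of it, and the 11 bases in capitals hold 2 overlapping matches to the NF-κB consensus, 1 on each strand, beginning 79 bases before the start in CXCL1 and CXCL3 and 78 in CXCL2.
CXCL1 (chr4:73869294-73869379, plus strand): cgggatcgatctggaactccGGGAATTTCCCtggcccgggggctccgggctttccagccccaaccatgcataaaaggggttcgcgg
CXCL2 (chr4:74099208-74099293, minus strand): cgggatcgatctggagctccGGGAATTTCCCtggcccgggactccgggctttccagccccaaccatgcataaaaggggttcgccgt
CXCL3 (chr4:74038703-74038788, minus strand): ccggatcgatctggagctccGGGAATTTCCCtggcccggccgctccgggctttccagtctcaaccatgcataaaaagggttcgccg

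The NF-κB consensus was also matched in the promoter of IL6, and was present in 5.90% of 34941 RefSeq promoters of the same length searched on both strands. The AP-1 motif TGANTCA, present in 7.72% of promoters, was matched in IL1A and CXCL8. The C/EBP motif, present in 10.5%, was matched in IL1B, IL6 and CXCL2, and TATAAA, present in 11.6%, in IL1A and CXCL8. None of these letters were found in the window of CSF2, and CCL2 and LIF were not searched. IL1B, which was called, and CXCL1, which had no reads, held different motifs. The genes with an NF-κB match were CXCL1 (0 counts), CXCL2 (overlapping groups), CXCL3 (higher in both knockdown libraries) and IL6 (lower in both). Only exact matches were searched. Whether a factor binds, or any motif had a part in these changes, was not tested.

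CCL2 (ENSG00000108691, chromosome 17, 34255274 to 34257208, plus strand) encodes the monocyte chemokine MCP-1. It had 70 and 44 counts in the control libraries and 15 and 14 after knockdown. The 2 knockdown libraries were nearly equal and both lay below the control libraries, which differed 1.51-fold. The level was 2.43 ± 0.702 CPM in the control and 0.701 ± 0.00955 CPM after knockdown (SD, n = 2). CCL2 fell by 1.79 on the log2 scale (SE 0.35, 95% interval -2.57 to -1.01, adjusted p = 0.0117 by edgeR), which is 3.45-fold lower with an interval of 2.01 to 5.92. Among all tested genes 46 had a larger fall. DESeq2 gave an adjusted p of 0.0131, and leaving out each library in turn gave log2 fold changes of -2.04 to -1.46. A filter at a mean of 50 counts removed it from the test.

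The CC chemokine genes beside CCL2 had no reads. CCL7 at 13.0 kb, CCL11 at 28.5 kb, CCL8 at 62.2 kb and CCL13 at 99.3 kb had 0 counts in all 4 libraries. CCL2 was thus the only gene of these 5 that could be measured. CCL2 and IL1B, both known as NF-κB targets, changed in opposite directions in the same libraries.

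LIF (ENSG00000128342, chromosome 22, 30240453 to 30246759, minus strand) had 2276 and 2712 counts in the control libraries and 2775 and 3207 after knockdown. The lowest knockdown value lay above the highest control value, by 1.10-fold on the CPM scale, while the replicates differed 1.25-fold in the control and 1.21-fold after knockdown. The log2 fold change was 0.44 (SE 0.15, 95% interval 0.10 to 0.77), with an adjusted p of 0.0958 by edgeR, so LIF was not called. DESeq2's Wald test gave an adjusted p of 0.0897. Without the filter on counts edgeR gave 0.0382, which is not on the scale of the main fit. Leaving out each library in turn gave log2 fold changes of 0.28 to 0.62. The annotated exons of LIF overlap antisense genes (LIF-AS1 and LIF-AS2) over 4.37% of their bases, and whether the counting used strand is not stated.

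IL6 (ENSG00000136244, chromosome 7, 22725884 to 22732002, plus strand), the founding gene of the family of LIF, had 16 and 22 counts in the control libraries and 8 and 11 after knockdown. Both knockdown libraries lay below both control libraries. The level was 0.817 ± 0.210 CPM in the control and 0.461 ± 0.119 CPM after knockdown. The log2 fold change was -0.82 (SE 0.45, 95% interval -1.82 to 0.18, adjusted p = 0.284 by edgeR), and the interval includes 0. Exons of IL6 overlap genes on the opposite strand over 9.91% of their bases.

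CSF2 (ENSG00000164400, chromosome 5, 132073789 to 132076170, plus strand) had 6 and 7 counts in the control libraries and 11 and 27 after knockdown. The groups did not overlap, but knockdown replicate 2 was 2.58-fold above replicate 1 in CPM. The log2 fold change was 1.71 (SE 0.57, 95% interval 0.44 to 2.98), with an adjusted p of 0.0872 by edgeR, so CSF2 was not called. Like CXCL3 it passed the filter only through the knockdown libraries. The ratio of summed counts was 3.30 (1.72 to 6.76). Without the filter edgeR gave an adjusted p of 0.0107, which again is not on the scale of the main fit.

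**Figure D2:**
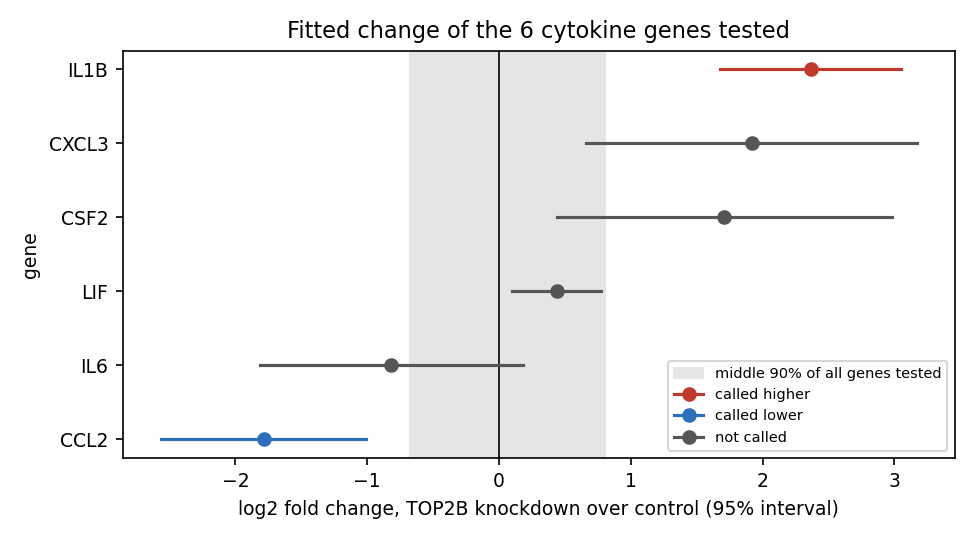
Log2 fold change, TOP2B knockdown over control, of the 6 tested cytokine genes on the x axis. Points are edgeR estimates with 95% intervals, coloured by whether the gene was called, and the grey band is the middle 90% of all tested genes. The interval of IL1B runs from 1.68 to 3.05 and that of CCL2 from -2.57 to -1.01, while CXCL3, CSF2 and LIF have positive and IL6 has a negative estimate.

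Of the 6 tested genes 4 had a positive and 2 a negative log2 fold change, with a median of 1.07, while the median of all tested genes was -0.0029 and their middle 90% spanned -0.68 to 0.80. The groups did not overlap for any of the 6, nor for CXCL8, against 54.3% of all tested genes. As CXCL3 and CSF2 could enter only through high knockdown values, neither this median nor the count is taken as a result about the set. Without a filter on counts, edgeR called 5 genes higher (CSF2, CXCL3, CXCL8, IL1B and LIF) and CCL2 lower, where 7.96% of 29440 genes were called. DESeq2's Wald test called IL1B and CCL2 only, where 11.8% of 13275 genes with an adjusted p were called, and it gave no adjusted p for IL1A, CXCL8, CXCL3, CXCL2, CSF2 and IL6. For CXCL3, CSF2, CXCL8 and LIF the call therefore rested on the filter and the tool, and for IL1B and CCL2 it did not within these 3 settings.

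**Figure D3:**
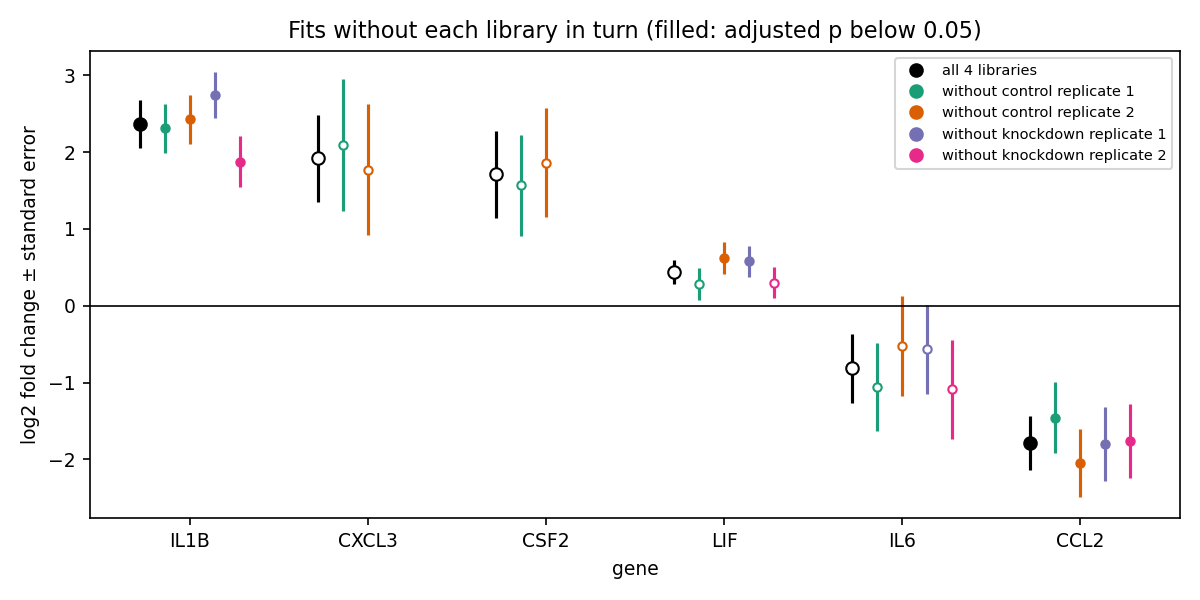
Log2 fold change of the 6 tested genes with all 4 libraries and with each library left out in turn, with standard errors as bars and filled points where the adjusted p was below 0.05. IL1B stays between 1.88 and 2.74 and CCL2 between -2.04 and -1.46, and CXCL3 and CSF2 have no point without a knockdown library because they then fall below the filter on counts.

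The 3′ UTRs of the 10 genes were searched for AU-rich words, chosen after the values were seen. The core word ATTTA was in all 10 genes, from 1 copy in CCL2 to 10 in CXCL2, and in 74.0% of 12517 tested genes with a 3′ UTR. The longer TTATTTATT, a known binding site of the decay factor tristetraprolin (ZFP36), was in 7 of the 10 genes and in 9.79% of tested genes. The genes without it were IL1A, IL6 and CCL2, and among those with it CXCL2 held 5 copies and CXCL1, which had no reads, held 3. Among all tested genes the median log2 fold change was -0.04 with the longer word and -0.01 without it, and 6.61% against 7.63% were called higher. Sites of CSF2 and LIF are shown with this word in capitals.
CSF2 3′ UTR site (chr5:132076077-132076105, plus strand): aaatatttatTTATTTATTtatttaagtt
LIF 3′ UTR site (chr22:30240535-30240563, minus strand): cagattatttTTATTTATTcaatgtcata

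The word GCAACC was in the 3′ UTR of IL1B and CXCL8, with 1 copy each, and in none of the other 8 genes. It was in 23.4% of the tested genes, so that 2 of 10 is near the share of all genes. Over all tested genes the median log2 fold change was 0.06 with the word and -0.04 without it, and 12.6% against 5.99% were called higher. The word was chosen because earlier results of these data had linked it to higher expression, so this difference is no independent result. Genes with and without the word were not matched for 3′ UTR length. The values given for these words are descriptions across genes of the same 4 libraries, and the part of any word in the change of a cytokine gene was not tested.

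Receptors and related binding proteins of the cytokines were listed from general knowledge, 13 in all, of which 6 were tested, 1 was called higher (IL1RN) and 2 lower, against 6.66% and 4.18% of all tested genes. At an unadjusted p below 0.05, 1 was higher and 4 were lower. LIFR, the subunit that binds LIF and also serves several related cytokines, had 1434 and 1002 counts in the control and 693 and 535 after knockdown, and fell by 0.81 on the log2 scale (SE 0.17, adjusted p = 0.0154 by edgeR). IL6R, which binds IL-6, had 297 and 237 counts in the control and 164 and 124 after knockdown, and fell by 0.71 (SE 0.18, adjusted p = 0.0365 by edgeR). LIFR was called in all 4 fits that left out a library, and IL6R in 2 of them, with adjusted p up to 0.177 without control replicate 1 or TOP2B KD replicate 2.

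The shared subunit IL6ST, with 16254 and 11932 control counts and 12873 and 10402 knockdown counts, had a log2 fold change of -0.10 (adjusted p = 0.768). IL1R1, the signalling receptor of IL-1, had 80 and 63 counts in the control and 29 and 36 after knockdown, with a log2 fold change of -0.95 and an adjusted p of 0.0555 that missed the threshold. Its partner IL1RAP had -0.43 (adjusted p = 0.120). The median of the 6 was -0.57, and 5 of the 6 values were negative, that of IL1RN being the exception. The receptors of the chemokines and of GM-CSF were at or near 0, with CXCR1, CCR2, ACKR1 and the decoy receptor IL1R2 at 0 in every library, CXCR2 at 3 counts in a single library, and CSF2RA and CSF2RB at 1 count in a single library each.

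Of 33 genes of the paths from the IL-1 receptor to NF-κB and from IL6ST to STAT3, 32 were tested, 2 were called higher and 1 lower, with a median log2 fold change of 0.07. These 3 of 32 are near the 10.8% called among all tested genes. At an unadjusted p below 0.05, 8 were higher and 2 lower, counts to which the 10.8% does not apply. NFKB1, which encodes the p105/p50 subunit, went from 1066 and 839 counts to 1274 and 1115, a log2 fold change of 0.50 (SE 0.13, adjusted p = 0.0386 by edgeR). TAB3, an adaptor of the kinase TAK1, had 0.45 (adjusted p = 0.0483) and was not called in any fit that left out a library. NFKBIB, an inhibitor that holds NF-κB in the cytoplasm, went from 856 and 953 counts to 556 and 540 and fell by 0.55 (SE 0.13, adjusted p = 0.0255 by edgeR). NFKB1 was called in 2 of the 4 fits that left out a library and NFKBIB in 1, without control replicate 1.

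Of 16 other well-known NF-κB targets, 11 were tested, 2 were called higher and 0 lower by edgeR, against 6.66% and 4.18% of all tested genes, with a median log2 fold change of -0.11. At an unadjusted p below 0.05, 3 were higher and 2 lower. Without a filter on counts, 1 of this list (PLAU) was called lower. PTGS2, the inducible cyclooxygenase, had 15 and 11 counts in the control and 28 and 33 after knockdown, a log2 fold change of 1.40 (SE 0.37, adjusted p = 0.0400 by edgeR). CD83, a surface protein of activated immune cells, had 49 and 63 counts in the control and 102 and 94 after knockdown, with 0.98 (SE 0.24, adjusted p = 0.0275). DESeq2 called neither of them, with an adjusted p of 0.0625 for CD83 and none for PTGS2. Leaving out 1 library ended the call of CD83 without control replicate 1 and that of PTGS2 without control replicate 2 or TOP2B KD replicate 2. The adhesion gene ICAM1 had 4 to 6 counts in every library and VCAM1 at most 1.

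Of 11 genes of the inflammasome and of interleukin 1 maturation and release, 8 were tested, 1 was called higher and 0 lower by edgeR. This is near the 10.8% of all tested genes called. At an unadjusted p below 0.05, 2 were higher and 3 lower, counts to which the 10.8% does not apply. GSDMD, which encodes the pore protein gasdermin D through which mature IL-1β leaves the cell, had 362 and 236 counts in the control and 782 and 645 after knockdown, and rose by 1.43 on the log2 scale (SE 0.18, adjusted p = 0.00175 by edgeR). Leaving out each library in turn gave log2 fold changes of 1.19 to 1.73 for GSDMD. CASP1, the protease that cuts the precursor of IL-1β, had a log2 fold change of -0.25 (adjusted p = 0.286), and the adaptor PYCARD had 0 counts in every library. The median of this list was -0.17. With DESeq2, and with edgeR without a filter, CAPN2 and NLRP1 were called lower.

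Of 13 genes that control the decay of AU-rich transcripts, all were tested, with a median log2 fold change of 0.16. By edgeR or DESeq2 0 were called in either direction, where 10.8% and 11.8% of all genes were called. With 13 genes, 0 calls is not far from these shares and does not show that the genes were unchanged. At an unadjusted p below 0.05, 3 were higher and 1 lower. ZFP36, which encodes tristetraprolin, had 234 and 229 counts in the control and 207 and 165 after knockdown, a log2 fold change of -0.14 (adjusted p = 0.644 by edgeR). Of 44 other cytokine genes, 11 were tested and 1 was called higher and 0 lower by edgeR and by DESeq2, near the 10.8% and 11.8% of all genes called by these tests. At an unadjusted p below 0.05 in edgeR, 2 were higher and 1 lower, the median was 0.06, and 17 were at 0 in every library. The gene called was CSF1, which encodes the macrophage growth factor M-CSF, with 3347 and 2646 control counts and 3941 and 3702 knockdown counts and a log2 fold change of 0.53 (SE 0.13, adjusted p = 0.0323 by edgeR). It was called in 1 of the 4 fits that left out a library, without control replicate 1. TNF, an upstream inducer of many of these genes, had 1 count in a single library.

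**Figure D4:**
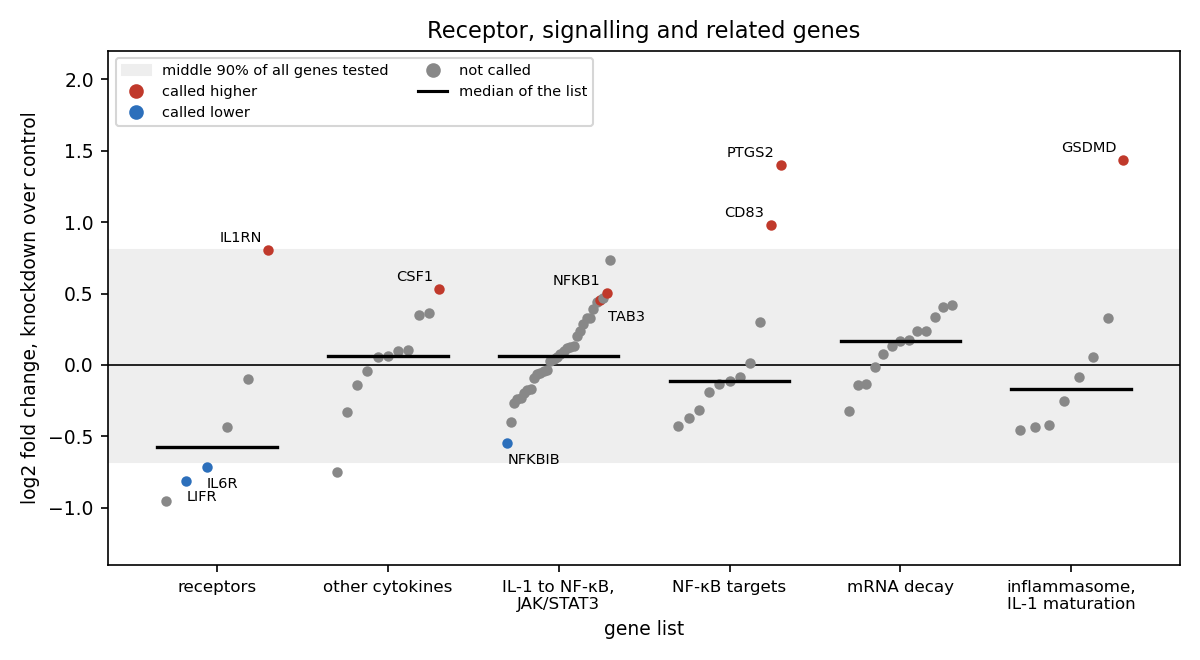
Log2 fold change, TOP2B knockdown over control, of the tested genes of 6 lists around the cytokines. Each point is a gene, coloured by whether it was called higher, lower or not called, with the median of the list as a bar and the middle 90% of all tested genes (-0.68 to 0.80) in grey. GSDMD at 1.43 and PTGS2 at 1.40 are highest, and LIFR at -0.81 and IL6R at -0.71 are the called lower receptors.

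The genes most like IL1B and CCL2 in pattern were sought over the 4 libraries among the 13326 genes that averaged 1 CPM or more, by the distance between centred log2 CPM values. The nearest to IL1B were the long non-coding RNA SFTA1P (distance 0.207), with 51 and 54 control counts and 170 and 253 knockdown counts, and the histone gene H2BC12 (0.263), with 47 and 48 against 191 and 263 counts. Both were picked for a pattern like that of IL1B, so their higher value in knockdown replicate 2 follows from the selection. The nearest to CCL2 were CXADR (0.182), the coxsackievirus and adenovirus receptor, with 710 and 424 control counts and 159 and 130 knockdown counts, and the olfactory receptor gene OR2T8 (0.224), with 1235 and 923 against 355 and 313 counts. H2BC12 belongs to a family of near-identical histone genes, and its counts are uncertain for that reason.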

How the data were processed

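RNA was profiled in 2 control and 2 TOP2B KD samples. The authors checked reads (single-end, 65 bp) with FastQC 0.11.6, aligned them to GRCh38 with STAR 2.5.4a and counted them on Gencode v24 genes, and they deposited raw counts per gene without normalization. The strand setting is not stated, and the column names carry a stranded paired-end tag. The table holds 8 columns, of which 4 repeat the others with identical values and were not used. Symbols, exons and 3′ UTRs came from GENCODE v44, which matched 93.1% of gene IDs, and promoters from RefSeq, which matched 8 of the 10 genes.

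Genes for which 2 or more libraries reached 10 counts were fitted with edgeR 4.0.16 in R 4.3.3 (TMM, glmQLFit and glmQLFTest, Benjamini-Hochberg adjustment over 15356 genes, common dispersion 0.0117). CPM in the text is scaled to the total of the tested genes times the TMM factor of the library, with a prior count of 2 on the log2 scale. Alternatives were DESeq2 1.42.0 size factors and Wald test, no normalization factors, other filters, a replicate block and fits without each library. In the last of these a lone sample is assumed to vary like the other group. For IL1B and GSDMD the fits without a library gave smaller adjusted p-values than the main fit. For CCL2, LIFR and other called genes some of these fits did so too. A call in a fit without a library is therefore no stricter check. Without a filter IL1B had an adjusted p of 6.24e-21 by edgeR, against 0.00194 in the main fit. Adjusted p-values of the unfiltered fit are therefore not on the scale of the main fit. In counts simulated for this comparison with no change, 0 of 15027 genes were called. A log2 change of 1 was recovered for 75.6% of 193 genes and a change of 2 for 94.9% of 195. False calls were 12 of 158 at a change of 1 and 3 of 188 at a change of 2. The changed genes were drawn from all tested genes, and no difference between replicates was simulated. These rates therefore do not apply to cytokine genes with few counts. With 2 libraries per group, p-values rest on the spread between these samples, with variance estimates that are in part shared across genes.

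The members and gene lists were chosen with earlier results of these data known. The share of all tested genes at an unadjusted p below 0.05 was not counted. The counts of the lists at that threshold are therefore not read as an excess. Named were every member, the called genes of each list (at most 8), TOP2B, the 2 nearest genes of each called member and the genes of its cluster. Other named genes (IL1R1, IL1RAP, IL6ST, ZFP36, CASP1, PYCARD, ICAM1, VCAM1, TNF, genes at 0, and genes called under an alternative) were chosen after their values were seen. The same holds for the named pigment epithelium markers. SOD2 was not analysed here.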

Additional observations from a re-analysis of the deposited data

How the results depend on the processing

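IL1B kept its call and direction in every setting tried, and CCL2 in every setting but the filter at a mean of 50 counts, which removed it. No direction of the 6 tested cytokine genes was reversed. The number of cytokine genes called higher was 1, and became 5 without a filter on counts and 1 to 2 when single libraries were left out, LIF being added without control replicate 2 or TOP2B KD replicate 1. The number called lower was 1 and became 0 with the filter at a mean of 50 counts. Under DESeq2's Wald test the receptors called higher went from 1 to 0, the signalling genes called higher from 2 to 1 and lower from 1 to 2, the NF-κB targets called higher from 2 to 0, and the inflammasome genes called lower from 0 to 2. With DESeq2 size factors in edgeR, 1 signalling gene was called higher. Without a filter, 1 further cytokine gene (IL12A), 1 NF-κB target and 2 inflammasome genes were called lower, receptors called lower went from 2 to 3 (IL1R1 added) and signalling genes called higher from 2 to 3 (RELB added), and with the filter at a mean of 50 counts 1 NF-κB target was called higher. Leaving out single libraries gave 0 to 1 receptors higher and 1 to 4 lower, 0 to 1 other cytokines higher and 0 to 1 lower, 1 to 2 signalling genes higher and 0 to 1 lower, 1 to 2 NF-κB targets higher and 0 to 1 lower, 0 to 1 decay genes higher and 0 to 1 inflammasome genes lower. The cause of these differences was not tested, apart from the genes that a filter removed. Over all genes, the calls ranged from 708 to 1003 higher and 452 to 535 lower without 1 library, against 1023 and 642, and were 1358 and 985 without a filter. Depth limits IL1A, CXCL8, CXCL1 and CXCL2, which had at most 23 counts in any library.

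The replicate numbers are shared by the groups, but the labels name no shared batch and there are only 2 pairs, so the numbers were not taken as a pairing. The difference between replicates 1 and 2 correlated across 15356 genes between the groups with r = 0.479. With the replicate number as a block, 3440 genes were called higher and 3346 lower. Under this block 4 cytokine genes were called higher (CSF2, CXCL3, IL1B and LIF) and 1 lower (CCL2). The block also gave 1 receptor higher and 4 lower, 2 other cytokines higher and 1 lower, and 10 signalling genes higher and 7 lower. Of the NF-κB targets 3 were higher and 2 lower, of the decay genes 7 and 1, and of the inflammasome genes 2 and 4. Beside these list counts stand the 3440 and 3346 genes called among all 15356 tested.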
